A study of Rattus norvegicus with 14 samples.

Results

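Rats that were exercised while they were acclimated to heat were compared here with rats that were acclimated to heat alone. The 8 samples were chosen by their labels from 14 in the series. The 4 combined samples come from heart, named as left ventricle where the labels give the part, and from soleus after treadmill training labelled 24°C together with heat at 34°C, for 3 days (short) or 1 month (long). The 4 heat-only samples come from the same tissues after 34°C for 2 days (short) or 1 month (long). Each combined sample was paired with the heat-only sample of its tissue and duration, which gave 4 pairs: heart short, heart long, soleus short and soleus long. The short pairs therefore set 3 days of combined treatment against 2 days of heat, and the extra day of heat and the training cannot be told apart in them. No unheated sample enters, so the values describe exercise on top of heat, together with that extra day in the short pairs.

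Heat acclimation is the slow adjustment of the body to lasting moderate heat. In rat heart it is known for higher levels of protective stress proteins and for a more economical use of energy. Endurance training enlarges the oxidative capacity of skeletal muscle and raises the work the heart can do. The soleus is a postural muscle of the hind leg made mostly of slow, oxidative fibres, which makes it, like the heart, a muscle that works by sustained aerobic metabolism. Both treatments load the circulation, and exercise itself produces heat.

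Expression was measured with arrays of 1185 probes and a target labelled with radioactive phosphorus. The labels' protocols name 6 animals and 3 pools behind a group, but each tissue and condition is represented by 1 array value per probe. A single pair has no replicate check, and the 4 pairs replicate one another only for what tissues and durations share. The probes carry identifiers that the sources used here do not pair with genes. For this reason no gene is named, the tissues could not be checked against marker genes, and probes are given by their identifier, at most 2 in each direction for a comparison. Intensities are deposited in arbitrary units, with empty cells below a limit, and a probe is called measured at 1200 or more. A value in all 8 samples was present for 282 probes, and 98 had none in any.

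The heat-only samples did not form a uniform set. Across the 282 probes with 8 values, the soleus short heat sample had a median rank correlation of 0.705 with the other 7 samples, and the remaining 7 samples lay between 0.770 and 0.838. It also had the fewest probes measured, 531, and the lowest median intensity, 3685. The heart short heat sample had the fewest probes measured in heart, 612. In the long pairs the heart and soleus heat samples resembled each other, with a rank correlation of 0.890 between the tissues. Results are therefore also given for the short and for the long pairs by themselves.

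The first comparison asked whether adding exercise altered how many genes gave a signal. More probes were measured with exercise in 4 of 4 pairs. In heart, 692 probes were measured in the short combined sample against 612 after short heat, and 747 in the long combined sample against 665 after long heat. In soleus the counts were 623 in the short combined sample against 531 after short heat, and 897 in the long combined sample against 696 after long heat. The ranges of the groups overlapped, since soleus short combined treatment lay below both long heat samples. The mean was 739.8 ± 116 probes in combined samples and 626 ± 72.2 in heat samples (SD, n = 4 each), and the within-pair difference averaged 113.8 ± 58.4 probes (SD, n = 4 pairs). An exact permutation test that exchanges labels within pairs gave p = 0.125 (two-sided), which is the smallest p this design allows, and 0.25 after Benjamini-Hochberg adjustment over 2 such tests. The threshold of 0.05 cannot be reached with 4 pairs.

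The brightness of the arrays moved with this count in 3 of the 4 pairs. The median intensity of the 282 probes was 6489 in the heart short combined sample against 5064 after short heat. In the heart long pair it was lower with exercise, 5126 in the combined sample against 5734 after heat. In soleus it was 4471 in the short combined sample against 3685 after short heat, and 7303 in the long combined sample against 5858 after long heat. The mean was 5847 ± 1284 in combined samples and 5085 ± 996 in heat samples (SD, n = 4 each; exact permutation within pairs, two-sided, p = 0.25, adjusted p = 0.25). The heart long pair thus had 82 more probes measured at a lower median intensity. At a limit of 3000 that pair had fewer probes measured with exercise, 345 in the combined sample against 429 after heat. Over the 4 pairs the mean difference was 59.3 probes at a limit of 2000 and 19.8 at a limit of 3000 (exact permutation, two-sided, p = 0.25 and p = 0.625). In the other 3 pairs the combined sample had more probes measured at both limits. At 3000 the counts were 387 against 342 in heart short, 288 against 241 in soleus short and 481 against 410 in soleus long. The heart long pair turned already at 2000, with 536 against 566, and the fall of the mean difference includes this turn. The part that array brightness has in the counts was not tested.

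**Figure D1:**
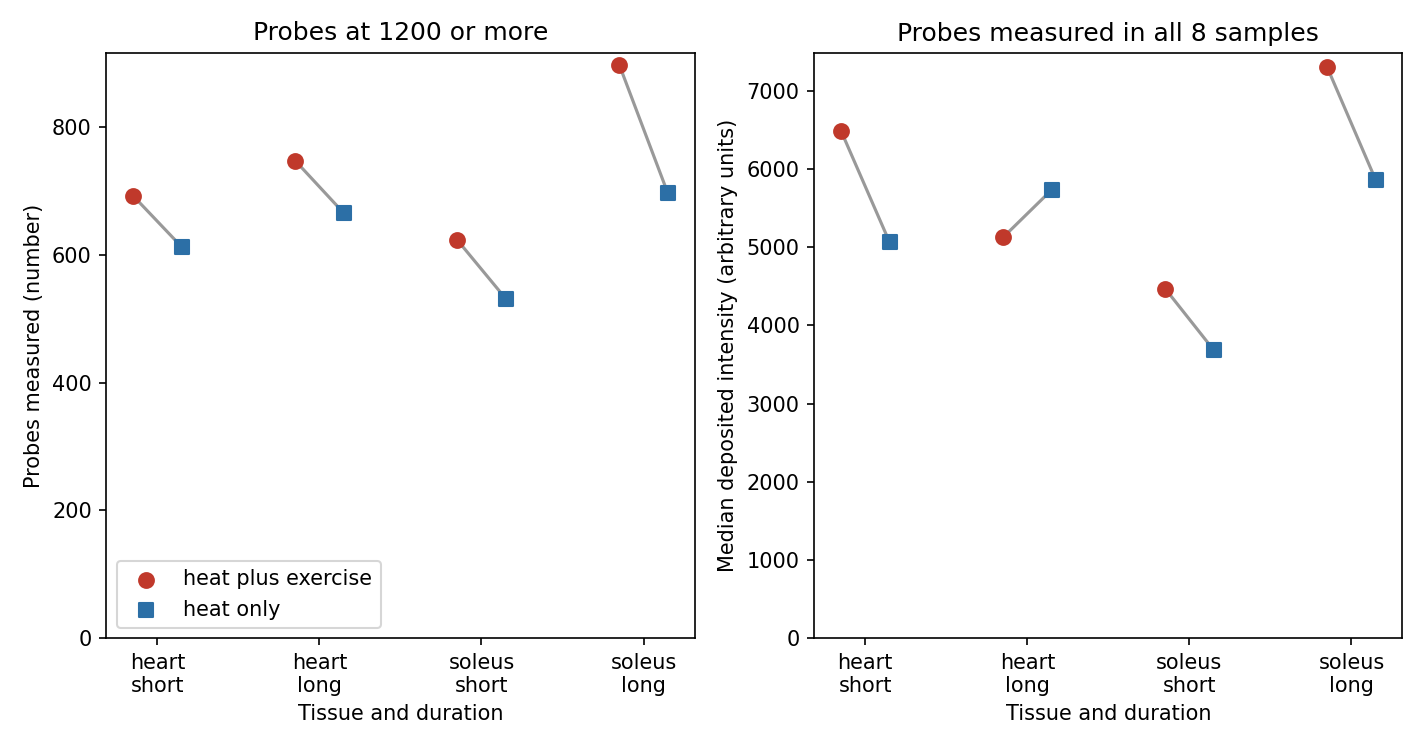
Number of probes measured (left, of 1185) and median deposited intensity of the 282 probes measured in all 8 samples (right, arbitrary units), for each tissue and duration. Red circles are heat plus exercise and blue squares heat only, joined within a pair. The red circle is higher in 4 of 4 pairs on the left and in 3 of 4 on the right, the heart long pair standing at 5126 with exercise against 5734 with heat.

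Which probes gave a signal differed between the samples of a pair in both directions. In the heart short pair, 178 probes were measured in the combined sample alone (15% of 1185) and 98 in the heat sample alone (8.27%). The heart long pair had 145 (12.2%) in the combined sample alone and 63 (5.32%) in the heat sample alone, a direction that turned at a limit of 2000, with 91 in the combined sample alone and 121 in the heat sample alone. In the soleus short pair these numbers were 244 (20.6%) and 152 (12.8%), and in the soleus long pair 330 (27.8%) and 129 (10.9%). As a share of the probes measured in the sample itself, those measured only with exercise made up 19.4% in heart long and 39.2% in soleus short, the lowest and the highest of the 4 pairs.

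Most of the probes measured only with exercise were dim. Their median intensity in the combined sample lay between 1822 in the heart long pair and 2174 in the heart short pair. At 2400 or more, which is 2 times the limit, lay 70 of the 178 in heart short, 38 of the 145 in heart long, 101 of the 244 in soleus short and 122 of the 330 in soleus long. The probes measured in the heat sample alone had medians between 1907 in heart long and 2665 in soleus long.

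**Figure D2:**
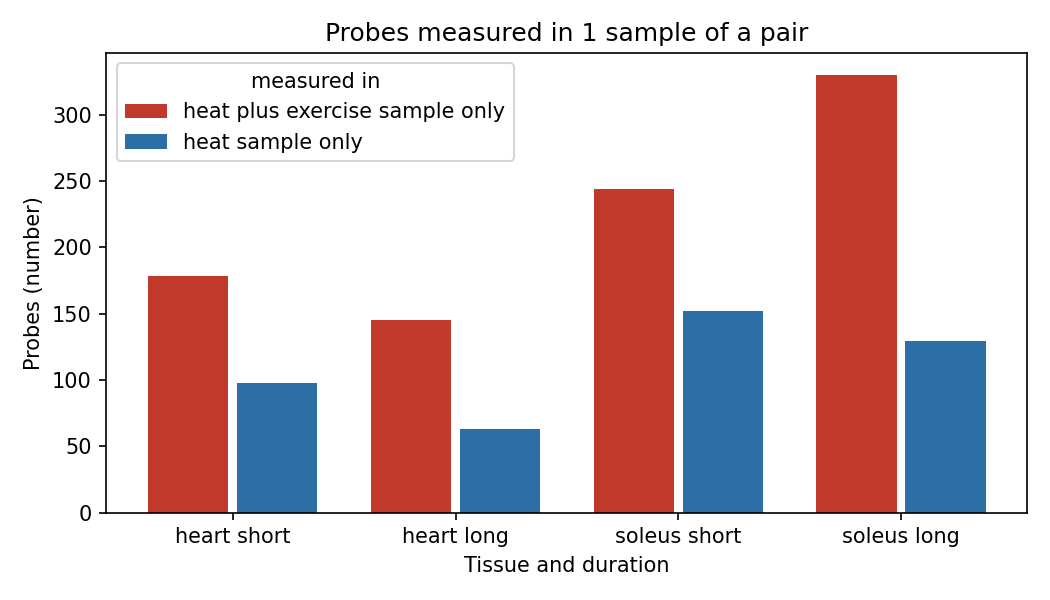
Number of probes measured in only 1 sample of a pair, by tissue and duration. Red bars are probes measured in the heat plus exercise sample only and blue bars probes measured in the heat sample only; at the limit of 1200 the red bar is the higher one in each pair (in heart long it would be the lower one at a limit of 2000), with 330 against 129 in soleus long as the widest gap.

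Of the 1185 probes, 487 were measured in more combined than heat samples, 216 in fewer, and 482 in the same number of both. All 4 combined samples and no heat sample held a value for 22 probes, whereas 2 probes were measured in all 4 heat samples and in no combined sample. When the same number of top-ranked probes, 531, was taken in every sample, so that the groups had equal totals, the numbers were 15 and 1. A wider count took probes measured in 1 direction only in 3 or 4 pairs and never in the opposite one. It gave 63 probes with exercise only and 11 with heat only. With the equal totals it gave 50 and 30, so the gap was narrower there. The 22 probes had mean intensities between 1704 and 3833 over the combined samples.

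R163 was the brightest of the 22. Its intensity was 4478 in heart short, 3327 in heart long, 3312 in soleus short and 4215 in soleus long combined samples, and its cell was empty in the 4 heat samples. R154 had 4674 and 3298 in the heart short and long combined samples and 1986 and 4539 in the soleus short and long ones, and was likewise empty in the 4 heat samples. That these groups do not overlap follows from how both probes were chosen. In the other direction, RG299 was empty in the 4 combined samples and had 1416 and 1445 in the heart short and long heat samples and 1873 and 4681 in the soleus ones. R709 was empty in the 4 combined samples and had 1304 and 2862 in the heart and 2402 and 2597 in the soleus short and long heat samples. These 2 probes were also chosen for this pattern.

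The second comparison asked which probes differed in level when exercise was added to heat. The 8 samples were quantile-normalized, values below a common floor of 1974 were raised to it, and log2(intensity + 1557) was fitted with the pair as a block. Fold changes of dim probes come out too small on such a scale, more so where a value was raised to the floor. The test took the 552 probes that exceeded the floor in 4 or more of the 8 samples. No probe passed an adjusted p of 0.05 (limma, Benjamini-Hochberg, 0 of 552, 0%), and the lowest adjusted p was 0.284. At an unadjusted p under 0.05 lay 48 probes that were higher (8.7%) and 31 that were lower (5.62%) with exercise. The pairs agreed in sign for 79 probes higher in 4 of 4 pairs (14.3%) and for 46 lower in 4 of 4 (8.33%). All 4 combined values exceeded all 4 heat values for 42 probes (7.61%) and lay below them for 15 (2.72%).

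The middle 90% of the 552 effects lay between -0.46 and 0.48 on the log2 scale. The median standard error was 0.17, which gives a 95% interval of ± 0.38 around a typical effect, or 1.30-fold on this scale. The labels name differently treated rats for the combined and heat groups, but do not say whether heart and soleus of 1 treatment came from the same animals, so the 4 pairs may not be independent and the p-values describe only the spread between these arrays. In tissue RNA, fewer cells of a type and less RNA per cell cannot be told apart.

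R712 had the lowest p among probes higher with exercise. Its deposited intensity was 5273 in heart short, 3952 in heart long, 3198 in soleus short and 6015 in soleus long combined samples. In heat samples it was empty in heart short and soleus short, 2702 in heart long and 1348 in soleus long. The lowest combined value, 3198, lay above the highest heat value, 2702, so the groups did not overlap. After normalization the same held for 28 of the 48 probes on the unadjusted higher list, so it goes with a choice by low p. The fitted effect was 0.72 ± 0.14 (SE) on the log2 scale, with a 95% interval from 0.40 to 1.04 (limma adjusted p = 0.284). The within-pair differences lay between 0.60 and 0.84, but in 3 of the 4 pairs the heat value was raised to the floor, so that these 3 differences are limited by it and their likeness in size is not a measurement.

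RG007 was the next. Its intensity was 13014 in heart short, 8663 in heart long, 7689 in soleus short and 9403 in soleus long combined samples. It was 6793 in heart short, 5730 in heart long, 1546 in soleus short and 5433 in soleus long heat samples, again without overlap. RG007 was measured in all 8 samples, and its effect was 0.80 ± 0.19 (SE), with a 95% interval from 0.37 to 1.23 (limma adjusted p = 0.284). The soleus short pair gave the largest difference, 1.44, against 0.47 to 0.72 in the other 3 pairs, and its heat sample is the one that stood apart.

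R400 had the lowest p among probes lower with exercise. Its intensity was 4264 in heart short and 1804 in heart long combined samples, and it was empty in both soleus combined samples. The heat samples gave 5398 in heart short, 3997 in heart long, 2662 in soleus short and 7651 in soleus long. Within each pair the combined value was the lower one, although the heart short combined value of 4264 exceeded 2 heat values. The effect was -0.70 ± 0.18 (SE), with a 95% interval from -1.12 to -0.28 (limma adjusted p = 0.284), and the within-pair differences ran from -1.30 in soleus long to -0.36 in heart short. In heart long, soleus short and soleus long the combined value was raised to the floor, so the sizes of these differences and of the effect are limited by it.

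RG391 followed, with 2623 in heart short, 1456 in heart long and 1441 in soleus short combined samples and an empty cell in the soleus long one. In heat samples it had 2519 in heart short, 5434 in heart long, 3640 in soleus short and 4435 in soleus long. The heart short pair hardly differed and its direction depended on the scaling, the combined value being higher as deposited and lower, by 0.10 on the log2 scale, after normalization. The effect over the 4 pairs was -0.64 ± 0.18 (SE), with a 95% interval from -1.04 to -0.24 (limma adjusted p = 0.284). Its size too is limited by the floor, to which the combined value was raised in heart long, soleus short and soleus long. For these 4 probes the sign of the effect was kept under every alternative tried for them. Fits on fewer of the pairs could not turn it, since each probe had the same sign in all 4 pairs. Leaving out the pair block or the filter on low values does not change the effect itself. Only the alternatives that change the values could have turned the sign.

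**Figure D3:**
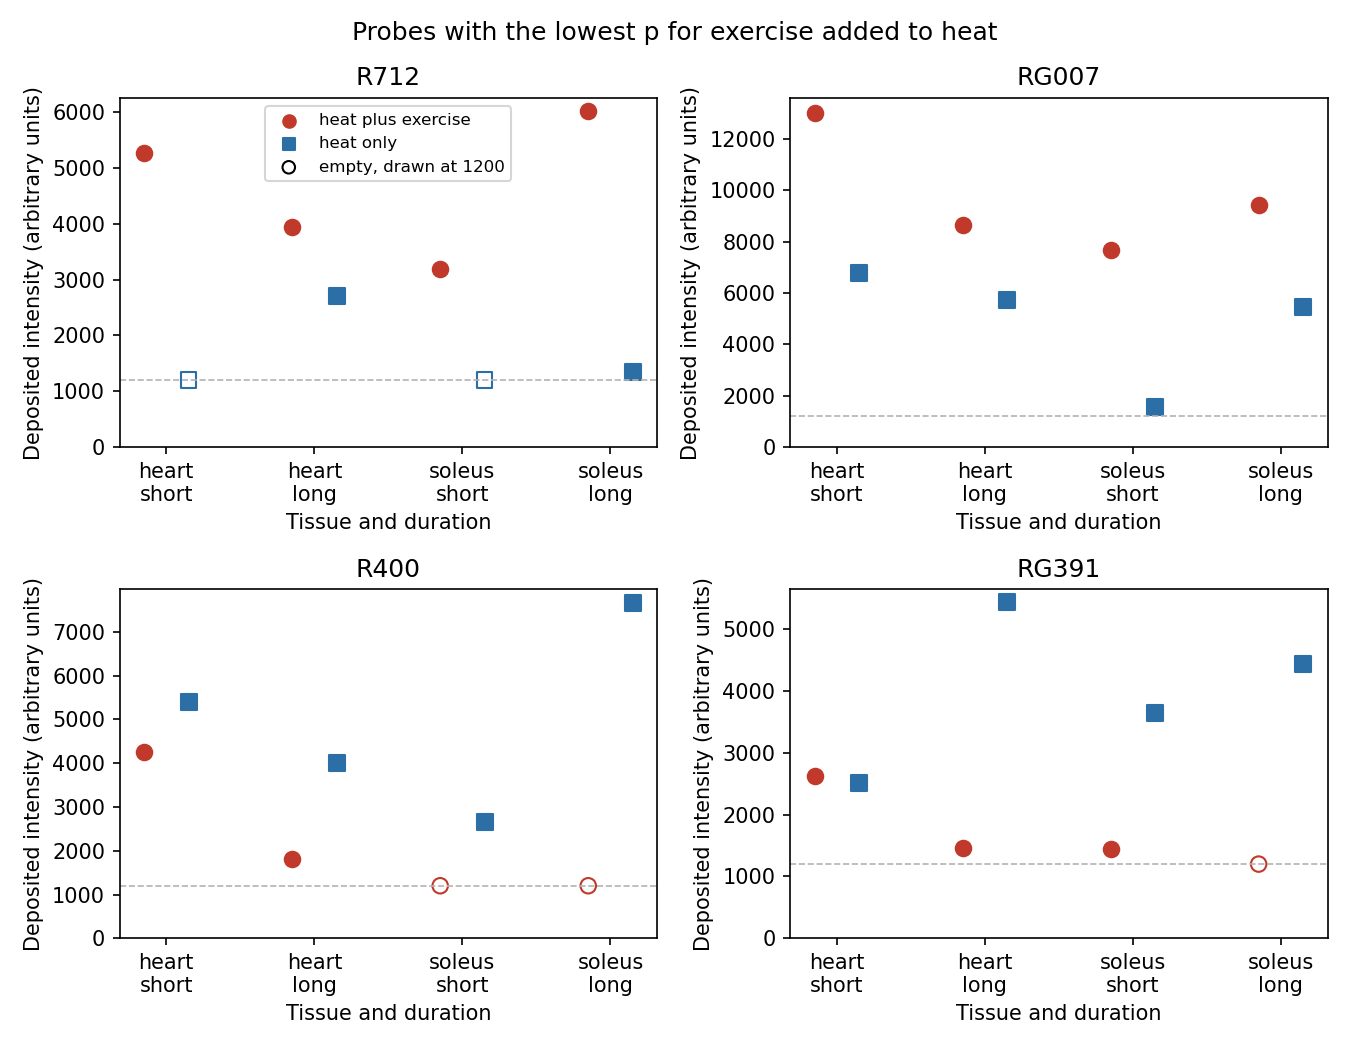
Deposited intensity (arbitrary units) of the probes with the lowest p in each direction, by tissue and duration. Red circles are heat plus exercise and blue squares heat only; open symbols are empty cells drawn at the limit of 1200 (dashed line). For R712 and RG007 all 4 red circles lie above all 4 blue squares; for R400 and RG391 the heart short combined values, 4264 and 2623, exceed some of the heat values.

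The unadjusted lists moved with what was measured. An empty heat cell itself pushes a probe towards the higher list and an empty combined cell towards the lower one. The shares below are therefore partly built into the choice. Of the 48 higher probes, 48 were measured in the soleus short combined sample and 24 in the soleus short heat sample, whereas of all 552 tested probes 468 were measured in that combined sample and 439 in that heat sample. Of the 31 lower probes, 15 were measured in the soleus short combined sample, 18 in the soleus long combined sample and 30 and 31 in the corresponding heat samples. In the short pairs alone 23 probes were higher and 3 lower at an unadjusted p under 0.05, and in the long pairs alone 48 were higher and 57 lower, with 0 adjusted calls in either (limma, lowest adjusted p 0.722 and 0.176). The split also moved with the scaling, from 60.8% higher among the unadjusted probes to 41.1% under median scaling and 77.5% without normalization. No direction of the list as a whole is therefore given.

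The third comparison asked whether exercise added to heat acted differently after a month than after days. The difference of the effects, long minus short, was tested in the same samples. Only the short pairs hold an extra day of heat in the combined samples, and this term cannot tell that day apart from the training. No probe passed (limma, 0 of 552, 0%), and the lowest adjusted p was 0.158. At an unadjusted p under 0.05 the difference was below 0 for 31 probes (5.62%) and above 0 for 8 (1.45%). Of the 31, 29 had a mean difference above 0 in the short pairs and below 0 in the long pairs, and 6 of the 8 had the opposite pattern. Opposite signs are largely built into a choice by the difference itself. Among all 552 tested probes, 119 (21.6%) had the first pattern and 92 (16.7%) the opposite one. The median standard error of this term was 0.33, so that a typical interval spanned ± 0.76 on the log2 scale.

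R377 had the lowest p. In the short pairs it was 4827 in the heart and 3172 in the soleus combined sample, and empty in both heat samples. In the long pairs it was 3515 in the heart and 4638 in the soleus combined sample, against 9351 and 8861 in the heart and soleus heat samples. The combined samples thus lay within a narrow range in both tissues, and the heat samples were at the extremes, empty after 2 days and highest after 1 month. The difference of the effects was -1.63 ± 0.30 (SE; limma adjusted p = 0.158).

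R228 was the next. Its intensity in the short pairs was 4576 in the heart and 6846 in the soleus combined sample, against an empty cell in heart and 2001 in soleus after heat. In the long pairs it was 3490 in the heart and 4004 in the soleus combined sample, against 8472 in heart and 6806 in soleus after heat. In both tissues the combined value was the higher one in the short pair and the lower one in the long pair, and the soleus short combined value of 6846 exceeded the soleus long heat value. The difference of the effects was -1.74 ± 0.32 (SE; limma adjusted p = 0.158). Without normalization 6 probes passed for this term, R377 and R228 among them, with differences of -1.92 and -1.98 (limma adjusted p = 0.00789 and 0.00569). In that setting the median difference of the effects was -0.23 over the 242 probes that exceeded the floor in each of the 8 samples.

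On the other side, R587 was 2066 in heart and 2084 in soleus short combined samples, against 2945 and 3349 in the short heat samples. It was 3830 in heart and 3773 in soleus long combined samples, against 2986 and 2016 in the long heat samples. The difference of the effects was 0.89 ± 0.30 (SE; limma adjusted p = 0.522). R642 was 7591 in heart and 4813 in soleus short combined samples against 8275 and 5763 after short heat, and 7031 and 11682 in long combined samples against 6493 and 3985 after long heat. Its difference of the effects was 1.04 ± 0.35 (SE; limma adjusted p = 0.522), with the soleus long pair contributing the most.

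The 31 probes were not measured equally often in the 8 samples. An empty cell in a short heat sample itself pushes long minus short below 0, so low counts there are partly built into the choice. The heart short heat sample held a value for 18 of them and the soleus short heat sample for 21, and the soleus long combined sample for 25, whereas the other 5 samples held values for all 31. Of all 552 tested probes, the heart short heat sample held 456 and the soleus short heat sample 439. The part that the low counts of measured probes in the short heat samples have in the difference was not tested.

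**Figure D4:**
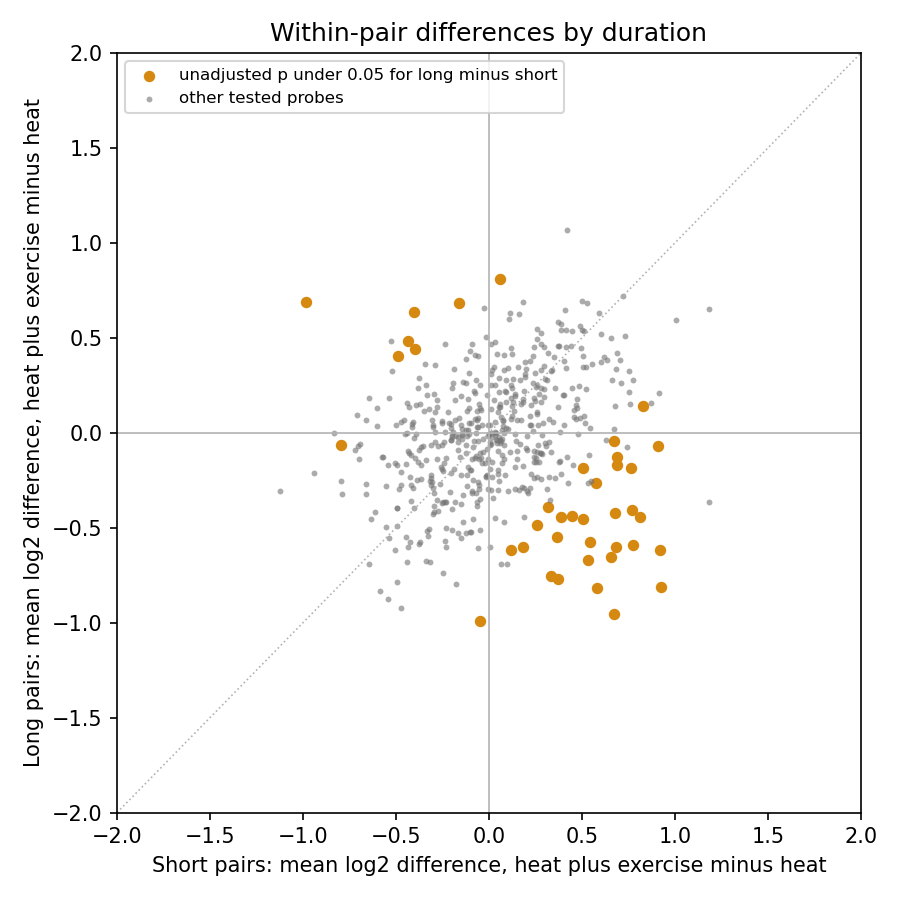
Mean within-pair log2 difference, heat plus exercise minus heat, in the short pairs (horizontal) and in the long pairs (vertical), for the 552 tested probes. Orange points have an unadjusted p under 0.05 for the difference of long minus short; 29 of them lie at the lower right, higher with exercise in the short pairs and lower in the long pairs, and 6 at the upper left.

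The fourth comparison asked whether heart and soleus differed in what exercise added. No probe passed for the difference of the effects, soleus minus heart (limma, 0 of 552, 0%), with a lowest adjusted p of 0.727. At an unadjusted p under 0.05 the difference was above 0 for 10 probes (1.81%) and below 0 for 15 (2.72%). The standard deviation over probes of the mean within-pair difference was 0.42 in soleus and 0.27 in heart on the log2 scale, a contrast in spread that was not tested and that includes the soleus short heat sample.

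RG509 was higher with exercise in soleus, at 5962 in the short and 9226 in the long combined sample against 1738 and 3500 after short and long heat. In heart it was 6134 and 3214 in the short and long combined samples against 7273 and 3083 after heat, with no common direction. Its difference of the effects was 1.04 ± 0.30 (SE; limma adjusted p = 0.727). RG113 was 2874 and 6370 in the short and long soleus combined samples, against an empty cell and 2790 after heat. In heart it was 2572 and 1414 in the combined samples against 3096 and 3014 after heat, lower with exercise in both pairs. Its difference of the effects was 0.87 ± 0.26 (SE; limma adjusted p = 0.727).

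R002 went the other way. It was empty in both soleus combined samples, against 3501 and 4935 after short and long heat, whereas in heart it was 3969 and 5407 in the short and long combined samples against 2288 and 4610 after heat. Its difference of the effects was -1.15 ± 0.25 (SE; limma adjusted p = 0.727, and 0.0445 when tested without a filter on low values, where 5 probes passed). R008 was empty and 2013 in the short and long soleus combined samples against 3573 and 8061 after heat. In heart it was 3626 and 2936 in the combined samples against 1984 and 3881 after heat, 1 pair in each direction. Its difference of the effects was -1.24 ± 0.32 (SE; limma adjusted p = 0.727).

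Differences of 2-fold or more in normalized intensity plus 1557 were counted within each pair, among probes that had a value in both samples and reached the median of 1 or both. These counts have no replicate check. The heart long pair had 3 higher (0.735%) and 3 lower (0.735%) of 408 probes, and the soleus long pair 4 higher (0.948%) and 4 lower (0.948%) of 422. The heart short pair had 3 higher (0.843%) and 13 lower (3.65%) of 356. The soleus short pair had the highest counts, 15 higher (5.07%) and 16 lower (5.41%) of 296. Both short pairs contain a heat sample with few probes measured. The split moved with the scaling. Without normalization it was 18 higher and 11 lower in heart short, 2 and 6 in heart long, 21 and 3 in soleus short, and 22 and 3 in soleus long.

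In the heart short pair RG147 was 8870 in the combined sample against 1272 after heat, and R722 was 7635 against 1958. RG147 went the opposite way in the other pairs. It was 1418 against 4505 in heart long, and empty against 6500 and 3643 in soleus short and long. R722 was lower with exercise in soleus long, 2027 against 3064, and hardly differed in heart long, 6850 against 7214. RG159 was 4185 in the combined sample against 14903 after heat, and RG357 was 2791 against 11748. RG159 was lower with exercise in the other pairs too. RG357 was higher there, 3104 against 2195 in heart long, 3696 against an empty cell in soleus short and 4395 against 2115 in soleus long. The heart short heat sample held the extreme value for RG159 and RG357, whose other 3 heat values were at most 3860 and 2195 or empty.

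In the heart long pair RG470 was 8585 in the combined sample against 1939 after heat, and in the heart short pair it was the reverse, 2010 in the combined sample against 10112 after heat. R441 was 4405 in the heart long combined sample against 1284 after heat. RG391, given above, was 1456 in the combined sample against 5434 after heat, and R376 was 1603 against 5726. R376 was lower with exercise also in soleus, where it was empty in both combined samples against 5917 and 4759 after short and long heat, but higher in the heart short pair, 4097 in the combined sample against 2053 after heat.

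In the soleus short pair RG050 was 14583 in the combined sample against 2093 after heat, and RG007 was 7689 against 1546. RG050 was higher with exercise in the other 3 pairs too, with 14604 against 8751 in heart short, 12176 against 7136 in heart long and 15494 against 7807 in soleus long. Its 4 combined values all exceeded its 4 heat values, and its effect over the pairs was 0.92 ± 0.27 (SE; limma adjusted p = 0.284). This effect includes the soleus short pair, for which RG050 was named, with a difference of 2.03 against 0.34 to 0.82 in the other 3 pairs. The heat sample of that pair is the one that stood apart. R223 was 1276 in the soleus short combined sample against 4764 after heat, and RG407 was 1562 against 5284. R223 was higher with exercise in soleus long, 4400 against 2455, measured only with exercise in heart short, and lower in heart long. RG407 was higher with exercise in heart short, 4545 against 2424, and lower in heart long and soleus long.

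In the soleus long pair R712 was 6015 in the combined sample against 1348 after heat, and RG282 was 5460 against 1204. RG282 was also higher with exercise in heart short, 2819 in the combined sample against 1926, and was empty in the remaining 2 heat samples, where the combined samples had 2674 and 3275. R008 was 2013 in the soleus long combined sample against 8061 after heat, and RG032 was 2662 against 7019. RG032 separated the tissues in the other samples, at 10990 to 15337 in heart and 2087 to 2662 in soleus, and the soleus long heat sample, at 7019, lay between these ranges.

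**Figure D5:**
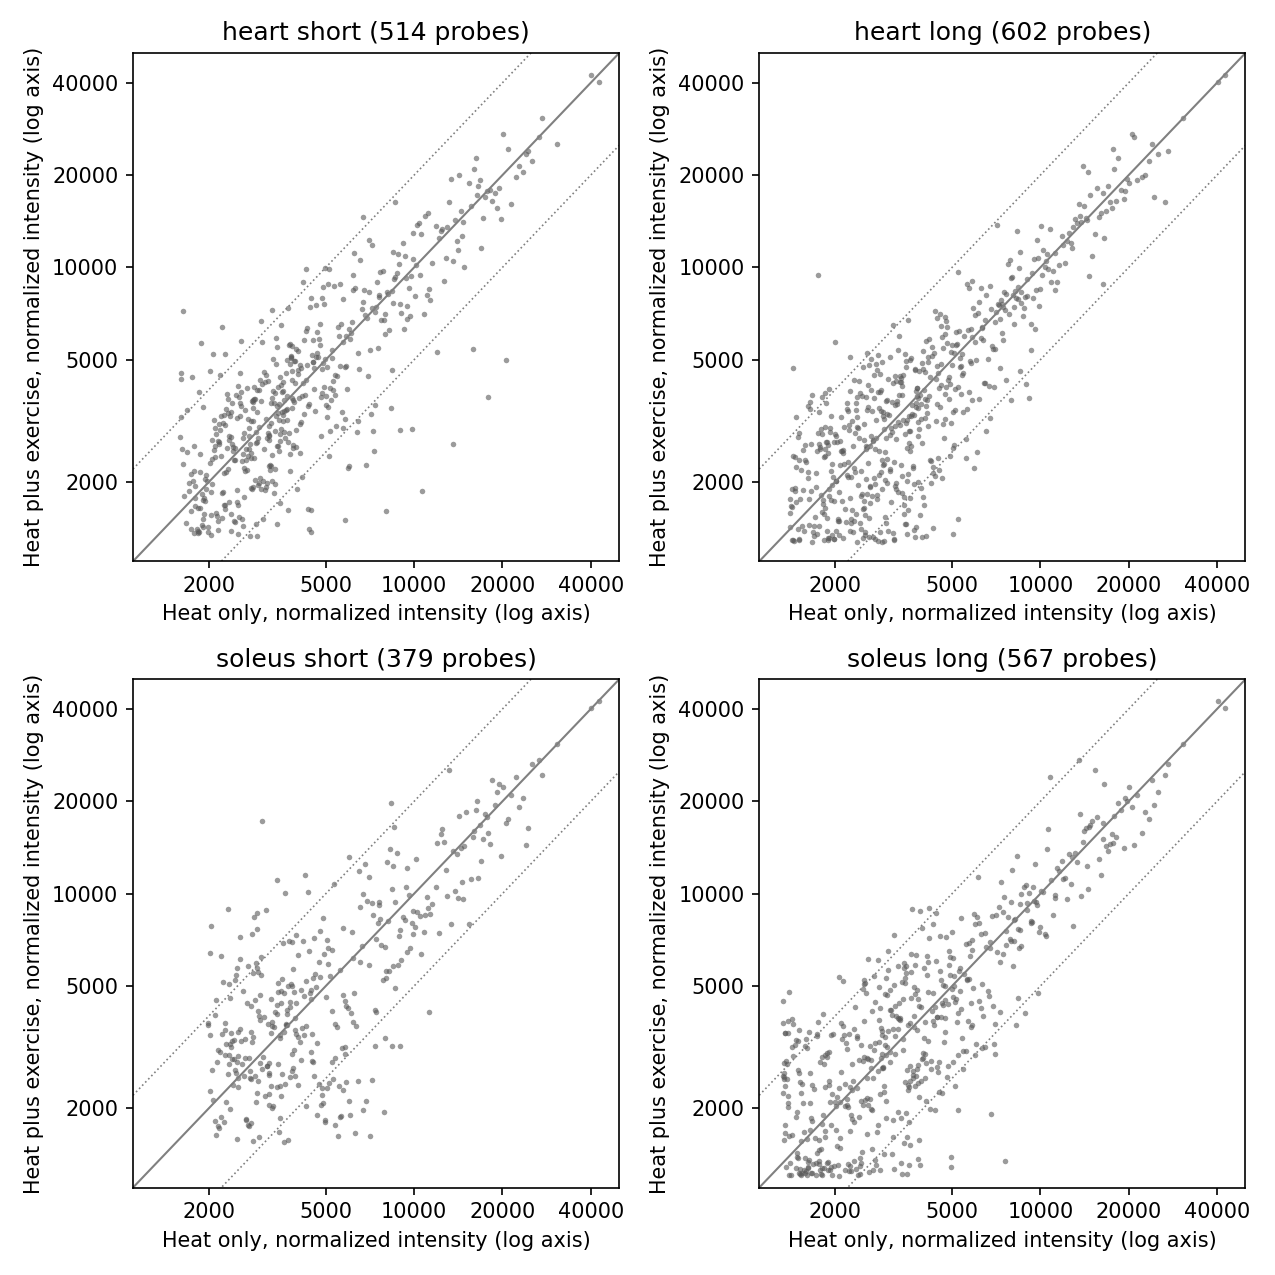
Normalized intensity (arbitrary units, log axes) in the heat plus exercise sample (vertical) against the heat sample (horizontal) for the probes measured in both samples of each pair. The solid line is equality and the dotted lines are 2-fold of the normalized intensity without the pseudocount. The points spread most in soleus short, where 379 probes were measured in both samples.

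The combined samples resembled each other across durations more closely than the heat samples did. Over the 282 probes, the rank correlation of short with long was 0.934 in heart and 0.897 in soleus combined samples, against 0.787 in heart and 0.787 in soleus heat samples. Over the same 242 probes that exceeded the floor everywhere, the SD of the log2 difference between durations was 0.22 in heart and 0.33 in soleus combined samples, against 0.45 in heart and 0.41 in soleus heat samples. Each of these heat values involves a short heat sample, which had the fewest probes measured in its tissue, 612 in heart and 531 in soleus. The heat samples span 2 days to 1 month and the combined samples 3 days to 1 month. Between the tissues, the rank correlation was 0.813 after short and 0.788 after long combined treatment, against 0.688 after short and 0.890 after long heat. The combined and heat samples of a pair correlated at 0.838 in heart short, 0.899 in heart long, 0.720 in soleus short and 0.844 in soleus long. These correlations are across probes of single samples, which share the array design and differ in brightness, and carry no test.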

How the data were processed

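Per the labels' protocols, total RNA was isolated with Tri-Reagent from 3 pools per group and labelled with radioactive dATP by a Clontech protocol. Each sample's deposited file gives linear intensities, in arbitrary units. In 3 of the 8 files some lines hold a probe without a second cell, so their unit was recorded as other, although these deposited values are intensities too. For image reading, background subtraction and array scaling, no method was given in the sources used here. A series table, also deposited, holds intensities in relative units, relative to what is unknown, with column medians from 0.727 to 1.25. Its empty cells are the same, its direction is that of the per-sample values (rank correlation within a sample 0.955 or more), and it served as an alternative. Of its columns, 6 belong to samples not analysed here.

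Empty cells were set to 1200, and quantile normalization of the 8 samples used limma 3.58.1 (R 4.3.3). The common floor, 1974, is the highest of the samples' lowest measured values after normalization, and was set by the soleus short heat sample. The pseudocount, 1557, is the 10th percentile of the deposited intensities. Linear models with empirical Bayes moderation held the pair as a block, with 3 residual degrees of freedom for exercise and 2 for each difference of effects. Tests were two-sided, adjusted by Benjamini-Hochberg over 552 probes. The fits were tested on simulated data. With small changes put in, false calls stayed under the adjusted threshold, and with larger ones they exceeded it, so a call after quantile normalization would need that caution. The simulated samples shared a common mean per probe, without differences between tissues or pairs, so their share of false calls may not hold for these arrays. The main fits made no call. The number of arrays limits the precision.

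Of the 1185 probe identifiers, 0 matched the reference gene table, so gene and marker lists were not tested. Probes named are the 2 with the lowest p in each direction per fit, the 2 brightest measured in 1 group only, and the 2 with the largest 2-fold difference per pair and direction. Members, lists and tests were chosen with earlier results of these data known. R163 and RG032 appear in those earlier results. For RG050, RG470, R376, RG282, RG147, R722, RG159, RG357, R223 and RG407 the other pairs were looked up after the rule named them.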

Additional observations from a re-analysis of the deposited data

Results flagged for a closer look

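Among the samples, and the named probes with all 4 samples of a group measured, 37 groups of 4 were examined for a sample far from the other 3, and 4 had one. About 1 group in 20 is marked by chance. Over all 60 groups, those with empty cells entered at the limit included, 12 had such a sample; the restriction to fully measured groups was chosen after seeing this, since entries at the limit are not measurements. The groups mix tissues and durations, and some probes were named for a large difference in 1 pair, so these are values to look at and no more. R377 had a normalized intensity of 4340 in the heart short combined sample, with the other 3 combined samples between 3741 and 3803. RG509 stood at 7053 in the heart short heat sample, where the other 3 heat samples lay between 2555 and 3174. RG159 stood at 17859.7 in the heart short heat sample, with 2821 to 5389 in the other heat samples. RG470 stood at 10646 in the heart short heat sample, with 1749 to 2689 in the others. In 3 of the 4 cases the sample apart was the heart short heat sample.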

How the results depend on the processing

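For exercise added to heat, the adjusted count was 0 in limma under each of 18 alternatives, including no replicate block, where the lowest adjusted p was 0.0768. Leaving out any 1 pair gave 0 in each case. The count for long minus short was 0 except 6 without normalization, and that for soleus minus heart was 0 except 5 without a filter on low values (limma, 8 alternatives each). R377, R228 and R002 passed there, as given above. The difference in probes measured ran from 84.7 to 125 without 1 pair, the lowest without the soleus long pair, and that in median intensity from 534 without the soleus long pair to 1219 (1218.5) without the heart long pair. At a limit of 2000 the heart long pair had 91 probes gained and 121 lost, and 1 probe was lost in all 4 pairs. With 531 top-ranked probes in every sample, gains equal losses by construction, at 117 in heart short, 107 in heart long, 181 in soleus short and 147 in soleus long, and 1 probe was lost in all 4 pairs. The 2-fold counts depended on the pseudocount and the filter. Without a pseudocount they were 19 higher and 27 lower in heart short, 14 and 34 in heart long, 28 and 32 in soleus short, and 38 and 30 in soleus long. With both samples at or above their median they were 0 and 3, 0 and 1, 2 and 1, and 2 and 0 in the same order of pairs. Without normalization heart short had 18 higher, heart long 6 lower, soleus short 3 lower and soleus long 22 higher, and under median scaling heart short had 21 lower. The causes were not tested. Dim values and empty cells limit all these results, since 42.4% of the cells are empty.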

Other observations

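The 4 pairs share no sample, so their within-pair differences can be set side by side. Over the 242 probes that exceeded the floor in each sample, the differences of the heart long and soleus long pairs had a Pearson correlation of 0.37, those of the soleus short and soleus long pairs 0.27, and those of the heart short and soleus short pairs 0.21. The heart long and soleus short pairs gave 0.12, heart short and heart long 0.03, and heart short and soleus long -0.05. These are correlations across probes on the same array design, with no test, and brightness at a probe is shared between arrays. The 2 pairs of one tissue were thus not uniformly closer than pairs of the 2 tissues treated for the same time.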
